A study of Mus musculus with 47 samples.

Results

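The 10 genes of the neutrophil described here, called the members, were followed in mice that inhaled welding fume, through their lungs, aortas and whole blood cells. They are the calcium-binding proteins *S100a8* and *S100a9* of the neutrophil cytosol, the granule proteins *Ltf*, *Camp*, *Ngp* and *Mpo*, the surface glycoprotein *Cd177*, and the receptors *Fpr1*, *Fpr2* and *Csf3r*. Members were found by their gene symbol in the deposited signal tables of the 3 tissues, and all 10 were listed among 17932 genes (18138 entries). Male C57BL/6J mice, 6 weeks old at the start, had breathed filtered air or the fume of gas metal arc welding on stainless steel (GMA-SS) at 40 mg/m3 for 3 hr/d on 10 days, and tissues were taken 4 hr or 28 d after the last exposure. RNA was hybridized to Illumina beadchips with 1 sample on an array, and 47 arrays in 12 groups were read, 4 per group except the aorta 4 hr after GMA-SS with 3. Blood and aorta arrays carry the same mouse numbers, lung arrays carry others, and globin RNA had been removed from the blood samples. A beadchip carried samples of a single tissue and time, and air samples took its first positions, so position and exposure cannot be told apart, nor can beadchip from time or from tissue.

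Neutrophils are made in the bone marrow under the control of granulocyte colony-stimulating factor, circulate in blood, and enter tissue along gradients of formyl peptides and other attractants. Their granules are filled in sequence during maturation: azurophil granules with *Mpo* first, specific granules with *Ltf*, *Camp* and *Ngp* next. The messenger RNAs of granule proteins are therefore abundant in marrow precursors and low in the mature cell, whereas *S100a8*, *S100a9*, *Csf3r* and the formyl peptide receptors stay transcribed in circulating neutrophils. *Ltf* is also a product of glandular and airway epithelium, and *Fpr1* and *Fpr2* are made by monocytes and macrophages as well. In tissue RNA, fewer cells of a type and less RNA per cell cannot be told apart.

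Promoters of 6 members are shown, those of the neighboring gene pairs and of the members that changed in lung. *S100a8* and *S100a9* lie 22.6 kb apart on chromosome 3 on opposite strands and varied together in every tissue. *Fpr1* and *Fpr2* lie 3.88 kb apart on chromosome 17, head to head on opposite strands, and both were lower in lung at 4 hr. *Cd177* on chromosome 7 and *Ltf* on chromosome 9 were higher in lung at 28 d. Each sequence holds the 250 bases before the transcript start from RefSeq (GRCm38.p6), 5′ to 3′ in the direction of the gene. The start used for *Cd177* lies within the annotated gene, which begins at base 24760334 on the minus strand. Part of the *Cd177* window therefore lies inside the gene, and its positions are counted from the start used. Capitals mark matches on either strand to a core C/EBP motif (TTGCNNAA), an ETS motif (AGGAAGT) or a TATA box (TATAAA), none of which overlapped another.
*S100a8* (chr3:90668821-90669070, plus strand)
S100a8: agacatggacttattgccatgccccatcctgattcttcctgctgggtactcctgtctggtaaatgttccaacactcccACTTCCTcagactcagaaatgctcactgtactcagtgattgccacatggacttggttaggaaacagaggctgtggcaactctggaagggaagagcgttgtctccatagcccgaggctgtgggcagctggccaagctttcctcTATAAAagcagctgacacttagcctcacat
*S100a9* (chr3:90695722-90695971, minus strand)
S100a9: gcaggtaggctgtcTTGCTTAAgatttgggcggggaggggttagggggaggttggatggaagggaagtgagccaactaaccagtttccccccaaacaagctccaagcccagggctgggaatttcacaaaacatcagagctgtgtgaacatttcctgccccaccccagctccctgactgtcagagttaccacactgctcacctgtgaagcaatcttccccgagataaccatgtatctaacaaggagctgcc
*Fpr1* (chr17:17883940-17884189, minus strand)
Fpr1: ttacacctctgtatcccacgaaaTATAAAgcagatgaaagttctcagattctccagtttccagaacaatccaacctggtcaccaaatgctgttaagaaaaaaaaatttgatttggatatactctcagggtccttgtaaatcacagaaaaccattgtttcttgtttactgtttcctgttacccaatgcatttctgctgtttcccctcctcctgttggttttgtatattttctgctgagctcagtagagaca
*Fpr2* (chr17:17887574-17887823, plus strand)
Fpr2: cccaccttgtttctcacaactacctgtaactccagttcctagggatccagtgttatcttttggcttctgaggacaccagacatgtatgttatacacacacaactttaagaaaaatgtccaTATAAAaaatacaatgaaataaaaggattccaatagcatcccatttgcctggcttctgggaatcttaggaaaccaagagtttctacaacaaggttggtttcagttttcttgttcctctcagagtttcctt
*Cd177* (chr7:24760312-24760561, minus strand)
Cd177: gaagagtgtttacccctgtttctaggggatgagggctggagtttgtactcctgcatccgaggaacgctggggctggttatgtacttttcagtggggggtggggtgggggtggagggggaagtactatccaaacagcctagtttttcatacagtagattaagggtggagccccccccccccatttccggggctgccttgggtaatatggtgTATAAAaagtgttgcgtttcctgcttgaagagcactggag
*Ltf* (chr9:111019042-111019291, plus strand)
Ltf: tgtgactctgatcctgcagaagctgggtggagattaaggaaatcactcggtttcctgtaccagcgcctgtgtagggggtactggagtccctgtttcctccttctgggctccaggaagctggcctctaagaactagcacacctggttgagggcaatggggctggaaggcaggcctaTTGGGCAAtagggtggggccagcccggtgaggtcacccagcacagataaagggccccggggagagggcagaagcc
The TATA box stood 30 to 25 bases before the start of *S100a8* and 40 to 35 bases before that of *Cd177*, but 227 to 222 bases before that of *Fpr1* and 130 to 125 before that of *Fpr2*. *S100a9* had no TATA match and held the C/EBP letters 236 to 229 bases before its start, and *Ltf* held them 75 to 68 bases before. Over all 10 members, 3 windows held the C/EBP letters, 2 the ETS letters and 4 the TATA letters. Of 32817 mouse promoter windows of the same length, 9.57%, 7.69% and 12.4% did. A match is a description of these letters and not a binding site.

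Which members could be measured differed by tissue. A gene is called above background on an array when its detection p-value, the fraction of negative controls that reach its signal, is under 0.05, and it was tested in a tissue when this held on at least 3 arrays. *S100a8* was above background on 16 of 16 lung, 16 of 16 blood and 15 of 15 aorta arrays, and *S100a9* on 16, 16 and 12. *Fpr2* and *Cd177* were above background on all 16 lung and all 16 blood arrays, yet in aorta on none and on 1 array. *Csf3r* reached it on 13 lung, 16 blood and no aorta arrays, and *Fpr1* on 7, 10 and 0. The granule genes split by tissue: *Ltf* was above background on 15 lung, 3 blood and 2 aorta arrays, *Camp* on 1, 11 and 3, and *Ngp* on 0, 5 and 1. *Mpo*, the azurophil peroxidase, was above background on 0 of the 47 arrays. Thus 7 members were tested in lung among 11133 genes, 9 in blood among 9259 and 3 in aorta among 9850, and the others could not be tested there. The entries of *Ltf*, *Mpo*, *Cd177* and *Csf3r* have detection p-values off the steps of a single probe, so they may combine several probes.

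The samples carried the markers of their labels. In lung all 9 epithelial markers were measured, with summed background-corrected signals of 301721 to 353489 per array, and in blood the 8 platelet markers summed to 94230 to 123664. In aorta all 7 smooth muscle markers were measured and summed to 14290 to 20127, beside 55612 to 66941 for 7 adipocyte markers. Entries above background numbered 8678 to 9646 per aorta array, 8090 to 8406 per blood array and 10239 to 10872 per lung array. Levels below are background-corrected, quantile-normalized log2(signal + 16) values, normalized within a tissue. A fold change is on that scale, which understates the change of dim genes, and standard errors (SE) and adjusted p-values come from limma with Benjamini-Hochberg adjustment over all genes of the tissue. In each group the arrays are given in the order of their replicate numbers.

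In lung 4 hr after the last exposure, 3 members were lower in GMA-SS mice than in air mice: *Fpr2* by 1.90-fold, *S100a9* by 1.71-fold and *Fpr1*, not above background on any GMA-SS array, by 1.62-fold. The calls of *S100a9* and *Fpr1* were narrow (adjusted p = 0.0433 and 0.0494, limma). With 1 array left out, each of these was called in only 2 of 8 fits. No member was called higher, although *Cd177* and *Ltf* lay above air. Calls at an adjusted p under 0.05 thus fell on 3 of 7 members, where 19.5% of all lung genes were called at this time (9.58% higher and 9.9% lower). The median log2 change was -0.32 over the members and -0.04 over all genes. At an unadjusted p under 0.05, 5 of the 7 differed, against 32.1% of all genes. Of the members, 3 had GMA-SS arrays all below the air arrays and 1 had them all above, where 14.5% and 12% of all genes did.

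The formyl peptide receptors sense bacterial and mitochondrial peptides. *Fpr2* read 11.27, 11.65, 11.58 and 11.23 in the air lungs at 4 hr and 10.62, 10.52, 10.52 and 10.37 in the GMA-SS lungs. Every GMA-SS array lay below every air array, with means of 11.4 ± 0.210 and 10.5 ± 0.105 (SD, n = 4). The log2 change was -0.93 (SE 0.134, adjusted p = 0.000123, limma). *Fpr1* read 6.04, 6.88, 7.03 and 6.15 in air and 5.96, 5.92, 5.51 and 5.95 after GMA-SS. The groups did not overlap (log2 change -0.69, SE 0.237, adjusted p = 0.0494, limma). None of the 4 GMA-SS arrays and 3 of the 4 air arrays were above background, so that the size of the *Fpr1* change is uncertain. *Fpr2* was called with any 1 of the 8 arrays left out (-0.99 to -0.86), but *Fpr1* only without air array 1 or air array 4 (-0.85 to -0.52 over the 8, adjusted p = 0.0248 to 0.153). The *Fpr1* call was also lost after 75th percentile scaling (-0.63, adjusted p = 0.0676), without a detection filter (adjusted p = 0.0673), with a replicate block (adjusted p = 0.0573) and on the authors' normalized values (-0.085, adjusted p = 0.0558), and without background correction its change was -0.27 (adjusted p = 0.0487). At 28 d *Fpr2* read 11.35, 11.27, 11.38 and 11.18 in air and 11.11, 10.52, 11.33 and 10.86 after GMA-SS. GMA-SS array 3 lay within the air range and the other 3 GMA-SS arrays below it, and the change of -0.34 (SE 0.134) did not pass (adjusted p = 0.0955), though it did without that array (-0.46, adjusted p = 0.0261). *Fpr1* read 6.59, 6.30, 6.12 and 6.15 in air and 5.66, 6.53, 5.91 and 6.60 after GMA-SS at 28 d. The groups overlapped, with 2 arrays of each above background (log2 change -0.12, SE 0.237, adjusted p = 0.799).

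*Csf3r* encodes the receptor for granulocyte colony-stimulating factor. It read 6.00, 6.53, 6.11 and 6.40 in the air lungs at 4 hr and 6.29, 6.23, 5.92 and 5.67 in the GMA-SS lungs, and the groups overlapped (log2 change -0.23, SE 0.209, adjusted p = 0.480). At 28 d it read 6.51, 6.82, 7.21 and 6.92 in air and 7.06, 6.96, 7.66 and 6.58 after GMA-SS. The groups overlapped again (log2 change 0.20, SE 0.209, adjusted p = 0.578).

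*S100a8* and *S100a9* encode the subunits of calprotectin, which binds calcium and zinc and acts on the receptors TLR4 and RAGE. *S100a9* read 10.17, 11.16, 10.59 and 10.59 in the air lungs at 4 hr and 10.12, 9.76, 9.85 and 9.69 in the GMA-SS lungs. The highest GMA-SS array lay just below the lowest air array, and the log2 change of -0.77 (SE 0.256) passed narrowly (adjusted p = 0.0433). With 1 array left out it was called only without air array 1 or GMA-SS array 1 (-0.92 to -0.59 over the 8, adjusted p = 0.0280 to 0.141). It was also not called without background correction (-0.68, adjusted p = 0.0540), without a detection filter (adjusted p = 0.0577) or on the authors' normalized values (-0.56, adjusted p = 0.0908). *S100a8* read 11.24, 12.29, 11.75 and 11.72 in air and 11.48, 11.46, 11.52 and 11.28 after GMA-SS at 4 hr. Its groups overlapped through 1 low air array (log2 change -0.32, SE 0.234, adjusted p = 0.379). At 28 d *S100a8* read 12.20, 12.31, 12.97 and 12.20 in air and 12.53, 12.50, 13.45 and 12.27 after GMA-SS. At that time *S100a9* read 10.89, 11.10, 11.68 and 11.05 in air and 11.02, 10.85, 12.07 and 10.64 after GMA-SS. In both groups array 3 was the highest for both genes, the groups overlapped, and neither change passed (*S100a8* 0.27, SE 0.234, adjusted p = 0.494; *S100a9* -0.03, SE 0.256, adjusted p = 0.952).

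At 28 d *Cd177* and *Ltf* rose in lung, 2 of 7 members, where 16.3% of all genes were called (7.66% higher and 8.67% lower). In both members every GMA-SS lung exceeded every air lung, as in 6.93% of all genes. The median log2 change was 0.20 over the members and -0.04 over all genes, and 3 of 7 members differed at an unadjusted p under 0.05, against 29.4% of all genes.

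*Cd177*, a surface glycoprotein of neutrophils that binds PECAM-1 on endothelium, had the largest change of the members. It read 7.30, 7.44, 7.29 and 7.08 in the air lungs at 28 d and 9.99, 9.34, 9.92 and 8.69 in the GMA-SS lungs. The 4 GMA-SS arrays stood clear of the air arrays, with means of 9.49 ± 0.603 and 7.28 ± 0.149 (SD, n = 4). The 4.61-fold rise (log2 change 2.21, SE 0.395, adjusted p = 0.0012) ranked 45 among the 11133 genes. It was called with any 1 of the 8 arrays left out (2.04 to 2.47), but its size depended on the processing: on the authors' normalized values it was 0.82 (adjusted p = 0.00248) and without background correction 1.49. At 4 hr *Cd177* read 6.53, 7.03, 6.95 and 7.13 in air and 7.17, 9.49, 7.29 and 7.25 after GMA-SS. The GMA-SS group lay above air, but by a wide margin only on array 2, and the change of 0.89 (SE 0.395) did not pass (adjusted p = 0.130). Without array 2 it was 0.33 (adjusted p = 0.407).

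*Ltf* encodes lactoferrin, the iron-binding protein of specific granules and of mucosal secretions. It read 11.40, 11.35, 11.01 and 11.48 in the air lungs at 28 d and 11.83, 11.66, 12.19 and 12.12 in the GMA-SS lungs. The groups did not overlap, and the 1.56-fold rise passed (log2 change 0.64, SE 0.181, adjusted p = 0.0231). The rise was not called without air array 3 (0.54, adjusted p = 0.0774) or without GMA-SS array 3 (0.56, adjusted p = 0.0821). At 4 hr it read 12.39, 11.80, 11.90 and 11.38 in air and 12.16, 12.10, 12.62 and 12.58 after GMA-SS. Only air array 1 reached into the GMA-SS range (log2 change 0.50, SE 0.181, adjusted p = 0.0626), and without it the change passed (0.67, adjusted p = 0.0113). Air array 2 was not above background by its detection p-value of 0.0726 despite its signal. The other granule genes were at or near background in lung. *Camp*, the cathelicidin precursor, read 5.27 to 6.20 and was above background only on GMA-SS array 2 at 28 d, and *Ngp*, a cystatin-like granule protein, read 5.05 to 5.71 and *Mpo* 5.05 to 5.47, on no array above background.

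**Figure D1:**
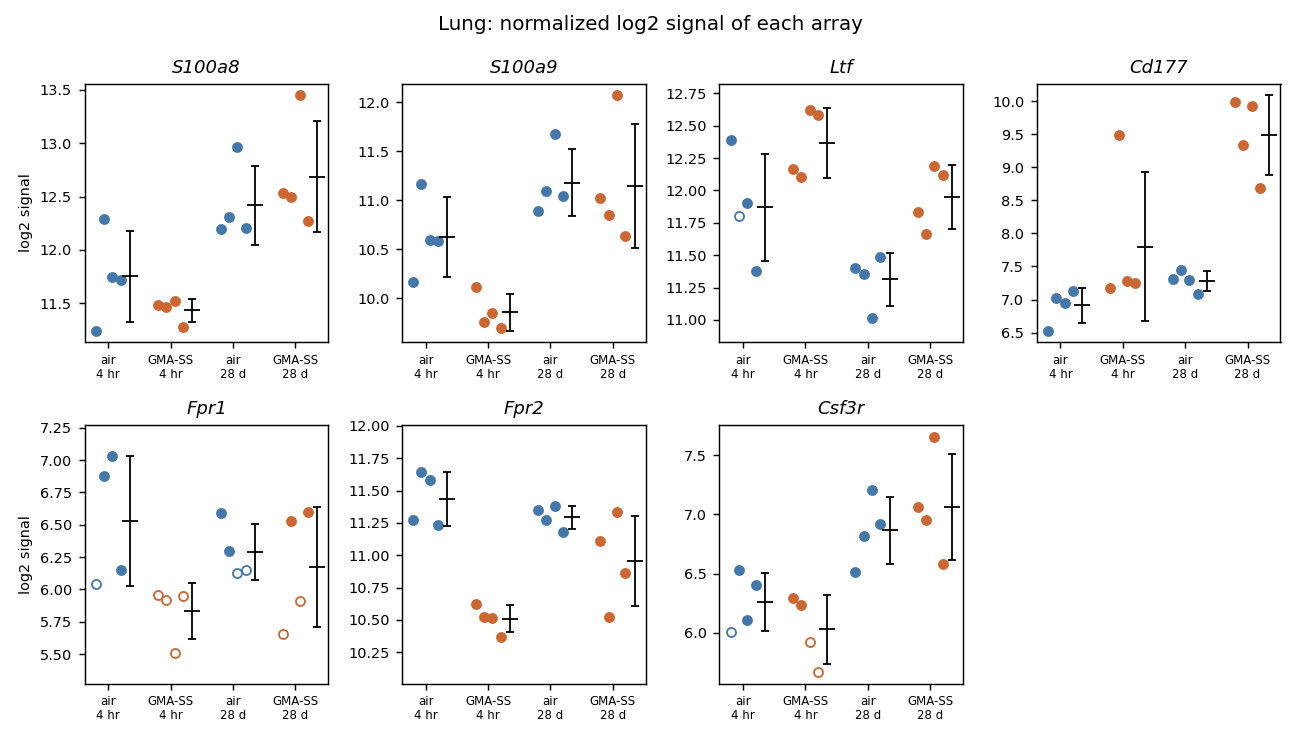
Normalized log2 signal of the 7 members tested in lung, 1 point per array, for air (blue) and GMA-SS (orange) at 4 hr and 28 d, with open points not above background and bars for the group mean and SD (n = 4). *Fpr2* at 4 hr and *Cd177* at 28 d show groups far apart, *S100a9* and *Fpr1* at 4 hr show groups apart by little, and the vertical scales differ between panels.

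The difference between the 28 d and the 4 hr change in lung was tested by itself. It was positive for all 7 members, but 0 of them were called, where 0.575% of all genes were. The lowest p-values were those of *Fpr2* (difference 0.59, SE 0.189, unadjusted p = 0.00659, adjusted p = 0.333) and *Cd177* (difference 1.31, SE 0.559, unadjusted p = 0.0310, adjusted p = 0.593). These 2 members were the ones under an unadjusted p of 0.05, where 7.33% of all genes were.

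Other neutrophil genes in lung were called higher more often than lower at both times. Over all lung genes 9.58% were called higher and 9.9% lower at 4 hr, and 7.66% and 8.67% at 28 d. Of 6 other specific granule genes tested, 5 rose and 0 fell at 4 hr (median log2 change 0.36) and 4 rose and 0 fell at 28 d (0.53). *Lcn2*, the siderophore-binding lipocalin, rose by 2.69 at 4 hr (adjusted p = 8.52e-10) and 2.95 at 28 d, and *Pglyrp1*, a peptidoglycan recognition protein, by 0.73 and 0.70. Of 15 other neutrophil receptors, 8 rose and 1 fell at 4 hr (median 0.63) and 9 rose and 1 fell at 28 d (0.67). *Clec4d*, a C-type lectin, rose by 2.15 and 2.33, the integrin chain *Itgb2* by 0.71 and 1.04, and the leukotriene B4 receptor *Ltb4r1* was the 1 that fell, by 0.64 and 0.38 (named after its values were seen). These lists hold genes that macrophages and epithelium also make, and *Chil3* is counted both with the specific granule genes and with the macrophage markers below.

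Genes that lie around the members' own function were counted in the same way. Of 12 ligands of the member receptors and attractants of neutrophils, 6 rose and 0 fell at each time (median log2 change 0.54 and 0.24). *Saa3*, a serum amyloid A of a family that acts on FPR2, rose by 5.52 at 4 hr and 5.53 at 28 d, and *Anxa1*, annexin A1, another FPR2 ligand, rose by 0.79 at 4 hr. Of 8 signaling genes downstream of *Csf3r*, 2 rose at 4 hr and 4 at 28 d, among them the feedback inhibitor *Socs3* by 0.74 and 0.82, and 0 fell. Of 8 partners of S100A8/A9 and of cathelicidin, 2 rose at 4 hr, *Tlr4* by 0.44 and *Cd14* by 0.59, both parts of the lipopolysaccharide receptor. At 28 d 2 of these 8 rose, *Cd14* by 1.06 and *Cd33* by 0.83, and *Ager*, which encodes RAGE, fell by 0.16. Of 10 other S100 genes tested, 5 rose and 1 fell at 4 hr and 1 rose at 28 d, with *S100a4* higher at both times (0.93 and 0.74).

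Of the genes kept with neutrophils by their timing in maturation, 1 of 3 other azurophil granule genes rose at each time, the cystatin *Cst7* by 0.66 and 0.54. Of 8 gelatinase granule and cytosolic genes, 4 rose and 1 fell at 4 hr and 5 rose and 1 fell at 28 d. *Wfdc21* rose by 1.52 and 1.44 and the protease inhibitor *Slpi* by 1.03 and 0.90, while *Mmp9*, the gelatinase of these granules, fell by 0.60 and 0.47. Of 7 granulocyte transcription factors, *Gfi1* rose by 0.42 and 0.44 and 0 fell.

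Markers of other cells moved in the same lungs. At 4 hr, when 3 members were lower, 5 of 7 platelet markers fell, with summed signals of 3548 to 4261 in GMA-SS and 4890 to 5703 in air lungs, and 4 of 8 erythroid markers fell (86531 to 91928 against 95168 to 98772). Markers of tissue cells fell too: 4 of 5 adipocyte markers (16176 to 23562 against 29462 to 44106), 3 of 6 cardiac muscle markers (10230 to 18460 against 17280 to 23541), 3 of 6 smooth muscle markers while 1 rose (14808 to 16314 against 18255 to 18674), and 1 of 6 endothelial markers. Immune markers rose at the same time: 5 of 7 for T cells (2779 to 5331 against 1877 to 2147), 3 of 7 for macrophages (26122 to 29689 against 21780 to 23217) and 2 of 4 for monocytes (3432 to 4457 against 2820 to 3216). Of the immature granulocyte and proliferation markers 4 of 5 rose (1239 to 2204 against 527 to 660). These were the proliferation genes *Top2a*, *Ccnb1*, *Cdc20* and *Birc5*, while *Prtn3*, the 1 granulocyte gene measured, was not called. At 28 d, when *Cd177* and *Ltf* were higher, 5 of 7 macrophage markers rose (23401 to 29142 against 18595 to 21352), as did 5 of 7 T cell markers (2621 to 5275 against 1997 to 2161), 3 of 4 monocyte markers and 1 of 5 NK cell markers. Among the immature granulocyte and proliferation markers 3 of 5 rose (731 to 2249 against 713 to 867), and *Prtn3* was again not called. *Ear6*, the 1 eosinophil marker of 7 that was measured, rose by 1.76 at 4 hr and 3.08 at 28 d, and 0 of 6 B cell markers were called at either time. At 28 d 4 of 6 smooth muscle, 2 of 6 endothelial, 2 of 7 platelet (4177 to 5897 against 4112 to 6646), 1 of 6 cardiac muscle and 1 of 5 adipocyte markers fell, while 1 erythroid marker of 8 rose and 1 fell. Of 9 lung epithelium markers, 2 rose and 0 fell at 4 hr, and 1 rose and 2 fell at 28 d. The part of these cells in the members' changes was not tested.

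In whole blood cells 9 members were tested, and none was called different between GMA-SS and air. At 4 hr 0 of 9 members were called, where 0.0108% of all genes (1 of 9259) were, and 0 of 9 reached an unadjusted p under 0.05, which 5.04% of all genes did. Of the 9, 7 lay below air, with a median log2 change of -0.29 over the members and -0.01 over all genes. At 28 d 0 of 9 were called, as were 0% of all genes, and 0 of 9 reached an unadjusted p under 0.05 (7.84% of all genes did). At that time 6 of 9 lay above air (median 0.14 over the members). *Ngp* and *Ltf*, counted among the 9, were above background on no blood array at 28 d, so their changes there compare signals near background. No member had groups that did not overlap at either time, where 3.14% and 2.95% of all genes did.

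The calprotectin genes were above background on every blood array. *S100a8* read 13.34, 13.82, 13.55 and 14.01 in air and 14.14, 12.92, 13.21 and 13.27 after GMA-SS at 4 hr. GMA-SS array 1 was the highest of the 8 and array 2 the lowest (log2 change -0.29, SE 0.221, adjusted p = 0.998). *S100a9* read 12.25, 12.85, 12.36 and 12.81 in air and 12.78, 11.87, 12.09 and 11.99 after GMA-SS at 4 hr. Here too GMA-SS array 1 lay within the air range and the other 3 GMA-SS arrays below it (log2 change -0.38, SE 0.241, adjusted p = 0.998). At 28 d *S100a8* read 13.68, 14.16, 14.44 and 13.82 in air and 14.53, 14.01, 14.47 and 14.03 after GMA-SS. At 28 d *S100a9* read 12.64, 13.03, 13.73 and 12.80 in air and 13.81, 13.07, 13.73 and 13.03 after GMA-SS. The groups overlapped for both genes (log2 changes 0.24, SE 0.221, adjusted p = 0.831 and 0.36, SE 0.241, adjusted p = 0.745).

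The receptors and *Cd177* in blood overlapped as well. *Fpr2* read 10.12, 10.45, 9.79 and 10.28 in air and 10.27, 9.78, 9.92 and 9.82 after GMA-SS at 4 hr, a log2 change of -0.21 (SE 0.188, adjusted p = 0.998). *Csf3r* read 8.24, 9.12, 8.76 and 9.25 in air and 8.93, 8.12, 8.40 and 8.51 after GMA-SS at 4 hr, a change of -0.35 (SE 0.219, adjusted p = 0.998). *Cd177* read 6.67, 7.16, 6.94 and 6.93 in air and 7.22, 6.47, 6.36 and 6.52 after GMA-SS at 4 hr, a change of -0.28 (SE 0.181, adjusted p = 0.998). In all 3 genes GMA-SS array 1 lay inside or above the air range while at least 1 other GMA-SS array lay below it. *Fpr1* had the lowest p-value of the members at 4 hr (log2 change -0.32, SE 0.180, unadjusted p = 0.0884, adjusted p = 0.998), with 3 air arrays and 1 GMA-SS array above background. At 28 d *Cd177* read 7.47, 7.44, 7.32 and 7.30 in air and 7.42, 6.81, 7.51 and 6.88 after GMA-SS, a change of -0.23 (SE 0.181, adjusted p = 0.796). The blood *Cd177* groups overlapped, with GMA-SS arrays 2 and 4 below the air range. The 28 d changes of *Fpr2*, *Csf3r* and *Fpr1* were 0.18, -0.15 and 0.14 (SE 0.188, 0.219 and 0.180), with adjusted p-values of 0.853 to 0.905.

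The granule genes were dim in blood. *Camp* read 5.90, 6.30, 6.02 and 6.09 in air at 4 hr, all above background, and 5.51, 5.32, 4.72 and 7.29 after GMA-SS, of which array 3 was not. GMA-SS array 4 was the highest of the 16 blood arrays and the other 3 lay below all air arrays of that time (log2 change -0.37, SE 0.338, adjusted p = 0.998). Without that array the *Camp* change was -0.90 (adjusted p = 0.182), and without GMA-SS array 3 it was -0.038. *Ngp* read 5.001, 5.51, 5.16 and 5.72 in air at 4 hr and 4.80, 5.19, 5.08 and 6.96 after GMA-SS (log2 change 0.16, SE 0.311, adjusted p = 0.998). The same GMA-SS array 4 carried its highest value, as it did for *Ltf* (6.26, not above background by its detection p-value), and without it the *Ngp* change was -0.33. That array also held the highest *Prg2*, the eosinophil major basic protein, at 7.15 against at most 5.58 on the other blood arrays (genes picked after their values were seen). At 28 d *Camp* was above background on 1 of 4 air and 3 of 4 GMA-SS arrays (4.67 to 5.19 and 5.07 to 5.29), and *Ngp* and *Ltf* on none of 8. The 28 d changes of *Camp*, *Ngp* and *Ltf* were 0.17, 0.02 and -0.08 (adjusted p = 0.931, 0.993 and 0.964). For *Camp* and *Ngp* the air arrays of 4 hr lay above the air arrays of 28 d, and time and beadchip cannot be told apart here.

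**Figure D2:**
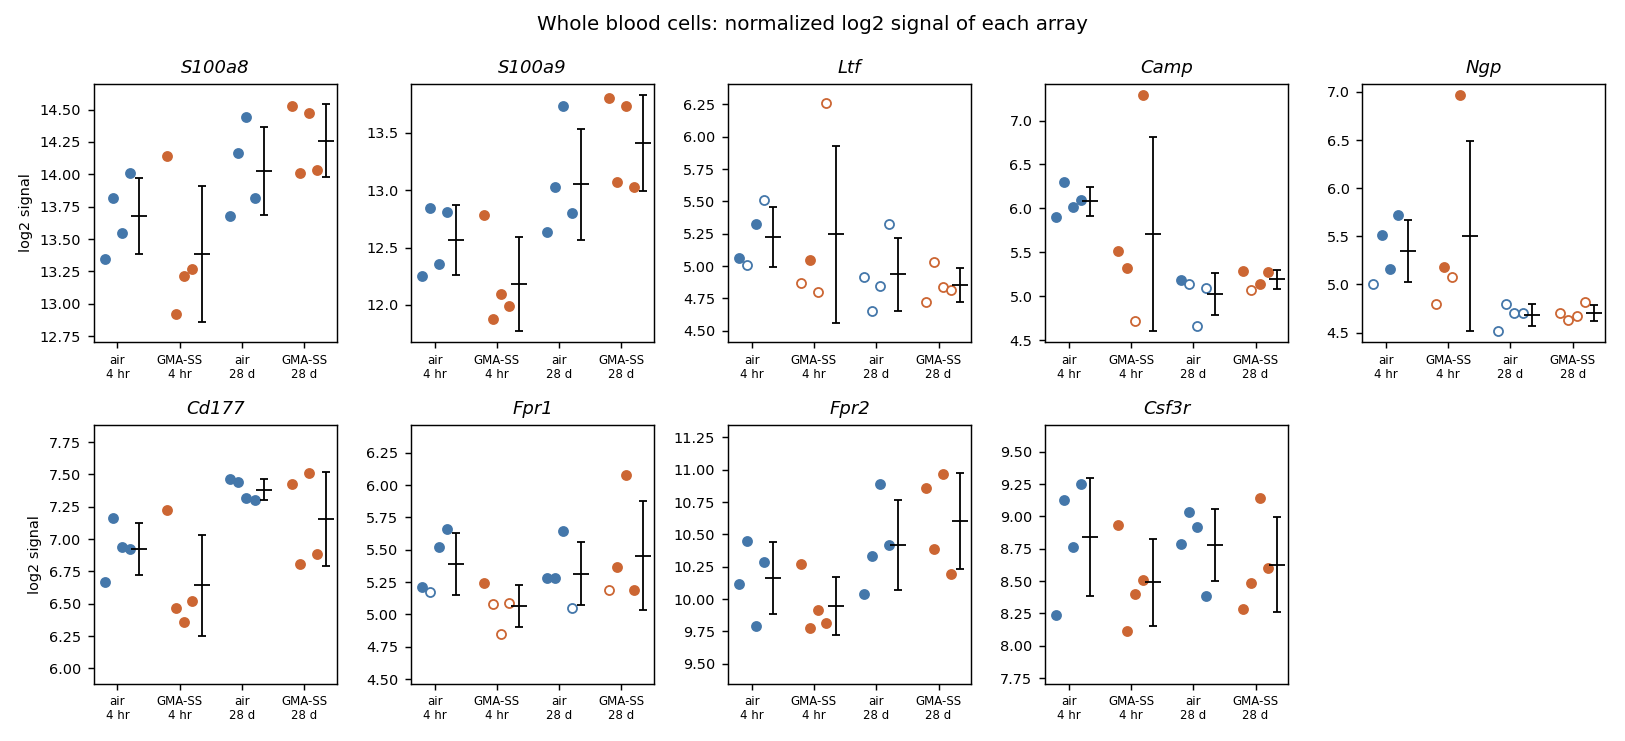
Normalized log2 signal of the 9 members tested in whole blood cells, 1 point per array, for air (blue) and GMA-SS (orange) at 4 hr and 28 d, with open points not above background and bars for the group mean and SD (n = 4). Air and GMA-SS overlap in every panel at both times, and 1 GMA-SS array at 4 hr lies above all others for *Camp* (7.29) and *Ngp* (6.96).

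The difference between the 28 d and the 4 hr change in blood was called in 0 of 9 members and in 0% of all genes. *S100a9* had the lowest p (difference 0.74, SE 0.340, unadjusted p = 0.0432, adjusted p = 0.999), the 1 of 9 members under 0.05, where 3.6% of all genes were. Other neutrophil lists in blood gave 0 calls at both times. *Mmp9* had the lowest log2 change of all 9259 genes at 4 hr (-0.66, SE 0.171, adjusted p = 0.456), and *Lcn2* changed by -0.65 (SE 0.298, adjusted p = 0.978). At 28 d *Wfdc21* changed by 0.43 (SE 0.222, adjusted p = 0.665), and no other gelatinase granule or cytosolic gene had a lower p.

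In aorta 3 members were tested, and none was called different between GMA-SS and air. At 4 hr 0 of 3 were called, as were 0% of all genes, and 0 of 3 reached an unadjusted p under 0.05, which 3.88% of all genes did. At 28 d 0 of 3 were called, 0% of all genes were, and 0 of 3 reached an unadjusted p under 0.05 (6.84% of all genes). All 3 lay below air at 4 hr (median log2 change -0.87, against -0.01 over all genes) and above it at 28 d (0.45, against -0.02).

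*S100a8* read 7.22, 7.13, 8.68 and 6.79 in the air aortas at 4 hr and 7.77, 6.12 and 5.86 in the 3 GMA-SS aortas. The groups overlapped through GMA-SS array 1 (log2 change -0.87, SE 0.601, adjusted p = 0.9998). *S100a9* read 5.77, 6.05, 7.16 and 5.32 in air and 5.84, 4.73 and 4.82 after GMA-SS at 4 hr, the last 2 not above background. It overlapped in the same way (log2 change -0.95, SE 0.478, adjusted p = 0.9998). At 28 d *S100a8* read 7.60, 6.29, 6.74 and 7.34 in air and 6.05, 7.13, 8.14 and 8.47 after GMA-SS. At 28 d *S100a9* read 6.43, 5.36, 5.68 and 5.68 in air and 5.10, 6.14, 6.80 and 7.08 after GMA-SS. For both genes GMA-SS array 1 was the lowest and arrays 3 and 4 the highest of the 8 (log2 changes 0.45, SE 0.556, adjusted p = 0.879 and 0.49, SE 0.442, adjusted p = 0.833). *Camp* read 4.52 to 5.69 over the 15 aortas, above background on 3 of them, and changed by -0.12 (SE 0.251) at 4 hr and 0.11 (SE 0.232) at 28 d.

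Single aortas stood apart. GMA-SS array 2 at 28 d read 12.91 for *Ltf*, where no other aorta exceeded 6.17, and 5.80 for *Cd177*, where the other 3 of its group read 4.53 to 4.58. On that array airway and alveolar genes were as far above all other aortas: *Sftpc*, surfactant protein C, read 11.1 against at most 4.72, *Scgb3a2*, an airway secretoglobin, 13.3 against at most 5.82, and *Bpifa1* 14.1 against at most 6.99 (genes picked after their values were seen). The summed signal of the 3 lung epithelium markers of 9 measured in aorta was 22253 on the highest array of that group, against at most 481 in the other 3 groups. *S100a8*, *S100a9* and *Camp* were not highest on this array, at 7.13, 6.14 and 4.52. Air array 3 at 4 hr had the highest *S100a8*, *S100a9* and *Camp* of its group, and *Ltf* at 5.88 against 4.63 to 4.72 in the other 3. It also held the highest skeletal muscle genes *Myh4* (7.38 against at most 4.77) and *Pvalb* (11.08 against at most 9.02), picked after their values were seen. Without it the 4 hr changes of *S100a8* and *S100a9* were -0.46 and -0.58, and without GMA-SS array 1 they were -1.46 and -1.31. The part of neighboring tissue in these values was not tested. *Mpo*, *Fpr1*, *Fpr2* and *Csf3r* were not above background on any aorta array, so that a change there could not be detected.

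**Figure D3:**
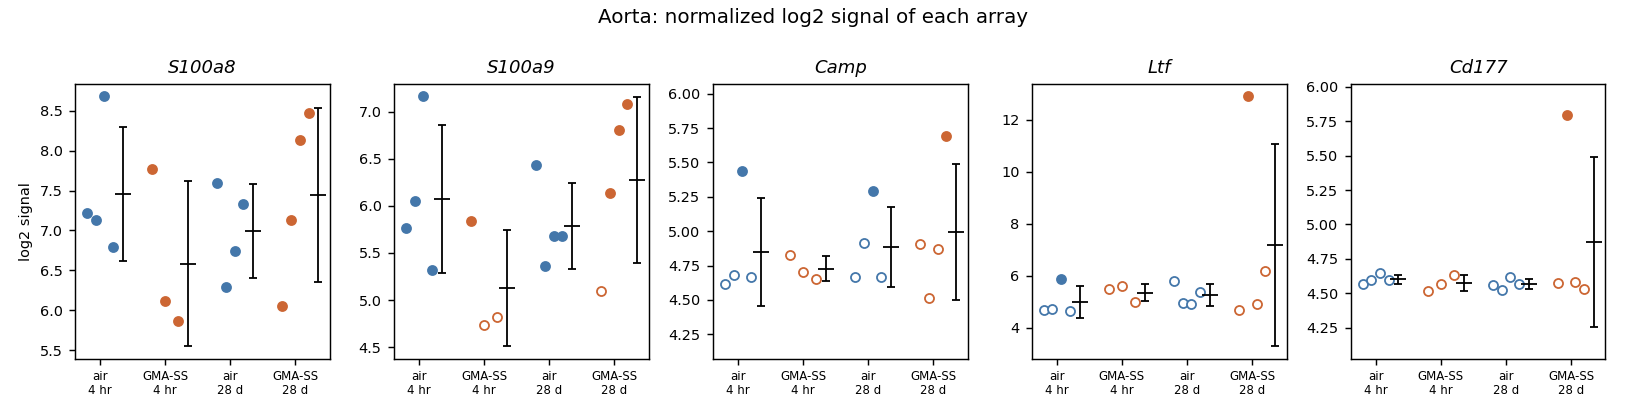
Normalized log2 signal in aorta of the 3 members tested (*S100a8*, *S100a9*, *Camp*) and of *Ltf* and *Cd177*, 1 point per array, for air (blue) and GMA-SS (orange) at 4 hr and 28 d, with open points not above background and bars for the group mean and SD (n = 4, or 3 for GMA-SS at 4 hr). *Ltf* and *Cd177* are highest on the same GMA-SS array at 28 d, at 12.91 and 5.80. *Ltf* is also above background on 1 air array at 4 hr (5.88), and air and GMA-SS overlap in the other panels.

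The 28 d minus 4 hr difference in aorta was called in 0 of 3 members and 0% of all genes, with *S100a9* at 1.44 (SE 0.651, unadjusted p = 0.0441, adjusted p = 0.998), the 1 of 3 under an unadjusted p of 0.05, where 3.92% of all genes were. Because blood and aorta came from the same mice, the members measured in both were set against each other over 15 mice, as deviations from the group means. Pearson r was 0.0075 for *S100a8*, -0.18 for *S100a9* and -0.04 for *Camp*, and Spearman rho was -0.02, -0.17 and 0.08. The permutation p-values of r were 0.983, 0.541 and 0.841 (two-sided, 100000 permutations of mice within groups, all 0.983 after adjustment over 3 members), those of rho 0.955, 0.583 and 0.749 (all 0.955 adjusted). Without the 2 mice farthest from the median in blood, r was -0.32, -0.41 and 0.15.

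Blood was set against lung in the air mice, 8 arrays each, after lung and blood arrays had been normalized together. Most members were higher in blood: *Csf3r* by 18.8-fold, *S100a9* by 12.8-fold, *S100a8* by 9.04-fold, *Cd177* by 5.24-fold, and *Fpr1* and *Fpr2* by 2.02-fold and 2.01-fold. *Fpr1* was above background on 6 of 8 blood and 5 of 8 lung arrays. With no normalization between arrays *Fpr1* and *Fpr2* read lower in blood, as given below. *Ltf* went the other way and was lower in blood than in lung, although only 2 of 8 blood arrays were above background for it, so that no fold is given. All 9 members tested were called, 8 higher and 1 lower in blood, but so were 87.3% of all 11659 genes (48% higher and 39.2% lower). A gene was tested here when it passed the filter in either tissue. *Camp* and *Ngp*, among the 8, passed in blood alone. For them the filter itself favored a higher level in blood, which enters the count of calls and the median below. Blood and lung arrays did not overlap in 7 of the 9, 6 higher and 1 lower, where 64.7% of all genes did not (35.1% higher and 29.6% lower). The median log2 difference was 1.52 over the members and 0.13 over all genes. Tissue, mice, RNA kit and beadchip cannot be told apart in this comparison.

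*Csf3r* read 9.42 to 10.34 in blood (mean 9.94 ± 0.321, SD, n = 8) and 5.38 to 6.11 in lung (mean 5.71 ± 0.248), a log2 difference of 4.23 (SE 0.131, adjusted p = 1.59e-23, limma). *S100a9* read 13.01 to 14.14 in blood and 8.93 to 10.61 in lung (difference 3.68, SE 0.184), and *S100a8* 13.84 to 14.79 and 10.13 to 12.09 (difference 3.18, SE 0.176). The highest lung array lay well below the lowest blood array for all 3 genes. *Cd177* differed by 2.39 (SE 0.219), *Fpr1* by 1.01 (SE 0.146) and *Fpr2* by 1.01 (SE 0.119), each without overlap. *Camp* and *Ngp* were above background on 5 and 3 of 8 blood arrays and on 0 of 8 lung arrays, and the arrays overlapped. At 4 hr alone the difference was 2.27 for *Camp* and 1.55 for *Ngp*, and at 28 d alone 0.77 (adjusted p = 0.0446) and 0.14 (adjusted p = 0.683). *Ltf* read 5.08 to 6.85 in blood, above background on 2 of 8, and 9.88 to 11.44 in lung, above background on 7 of 8 (difference -4.39, SE 0.228, adjusted p = 1.44e-17). The *Ltf* difference ran from -3.06 without background correction to -6.48 with no normalization between arrays.

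**Figure D4:**
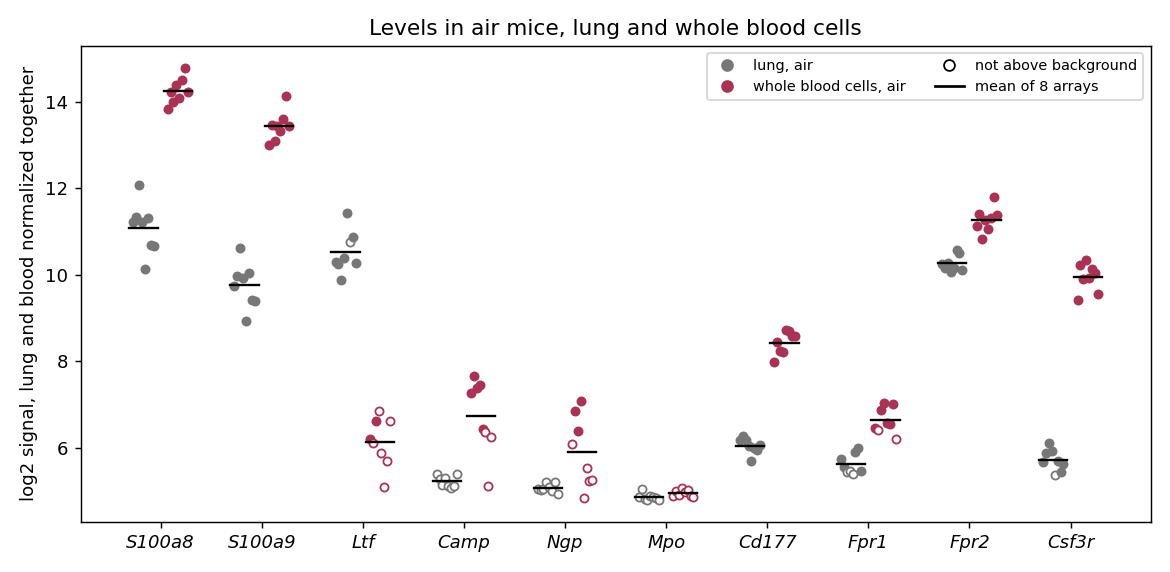
Log2 signal of the 10 members in the 8 air lungs (gray) and the 8 air blood samples (maroon), all arrays normalized together, with open points not above background and a line at the mean of 8 arrays. *S100a8*, *S100a9*, *Cd177*, *Fpr1*, *Fpr2* and *Csf3r* are higher in blood without overlap, *Ltf* is lower, and *Mpo* is not above background in either.

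The scale of this comparison depends on the normalization. Scaled to the 75th percentile, 66.3% of all calls were higher in blood, with a median of all genes of 0.51, in place of 55.0% and 0.13. With no normalization between arrays 7.38% were higher, and the median of all genes was -1.89. In that case *Camp*, *Ngp*, *Fpr1* and *Fpr2* read lower in blood by log2 values of -0.11, -0.41, -0.97 and -0.98. There 7 of the 9 members were called, and *Camp* (adjusted p = 0.604) and *Cd177* (0.19, adjusted p = 0.456) were not. Relative to the median of all genes, *Fpr1* stood at 0.88 after quantile normalization and 0.92 after 75th percentile scaling, *Csf3r* at 4.10 and 4.28, *Cd177* at 2.25 and 2.08, and *Ltf* at -4.52 and -4.59. With no normalization these relative values equal those of 75th percentile scaling, because the scalings differ by a shift common to all genes.

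Neighboring lists differed in the same comparison. All 17 other neutrophil receptors tested and 9 of 10 gelatinase granule and cytosolic genes were higher in blood (median log2 difference 2.19 and 2.58), among them *Clec4d* by 5.18, *Mmp9* by 4.48 and *Retnlg* by 5.79. Of 7 other specific granule genes 3 were higher and 4 lower in blood (median -0.81), with *Pglyrp1* at 2.51 and *Hp*, haptoglobin, at -2.90. Of 12 ligands and attractants 3 were higher and 7 lower, with *Cxcl15*, the lung chemokine, at -9.97 and complement *Hc* at -6.42. *Ager* was lower in blood by a log2 value of -8.66.

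Whether the fume effect differed between blood and lung was tested in the same joint fit. At 4 hr 1 of 9 members was called, where 5.09% of all genes were: *Fpr2* changed by -1.03 in lung and -0.19 in blood, a difference of 0.84 (SE 0.239, adjusted p = 0.0346). It is not called when arrays are scaled to the 75th percentile (0.71, adjusted p = 0.0765). At 28 d 1 of 9 was called, where 4.45% of all genes were: *Cd177* changed by 2.03 in lung and -0.21 in blood, a difference of -2.24 (SE 0.437, adjusted p = 0.00215). *S100a8* changed alike in sign at 4 hr (lung -0.36, blood -0.22), with a difference of 0.13 (SE 0.351, adjusted p = 0.909). At 28 d its changes were 0.31 in lung and 0.22 in blood, with a difference of -0.09 (SE 0.351, adjusted p = 0.933). The *Ltf* difference was -0.75 (SE 0.456, adjusted p = 0.427) at 4 hr and -0.86 (SE 0.456, adjusted p = 0.354) at 28 d. At each time 2 of 9 members were under an unadjusted p of 0.05, where 17.3% and 16.5% of all genes were.

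**Figure D5:**
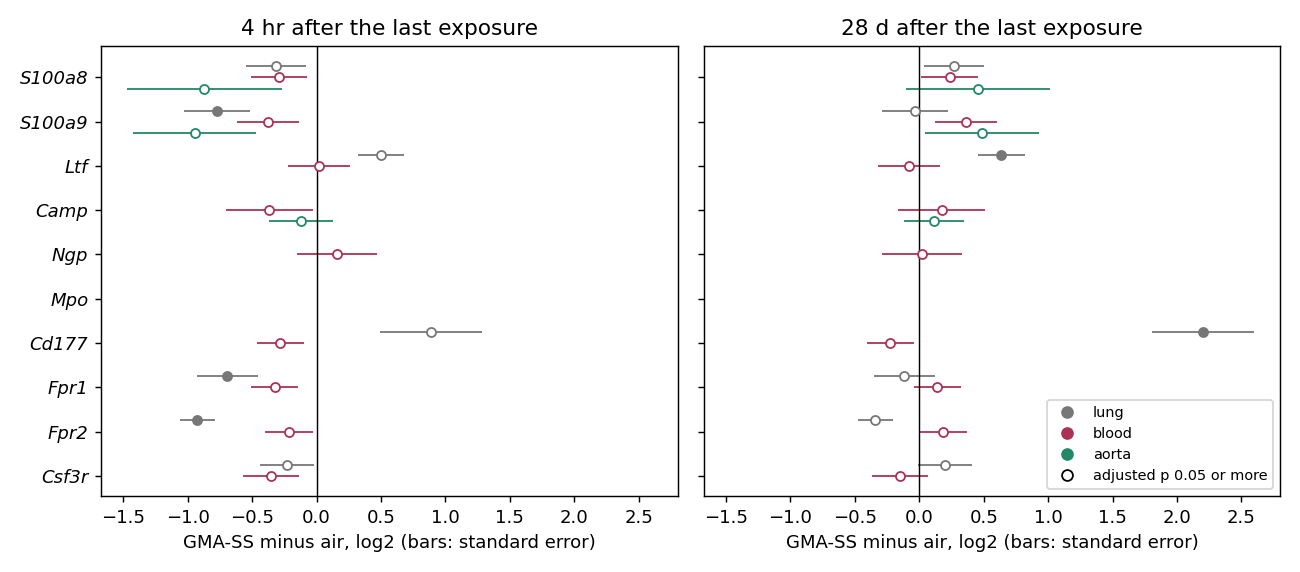
Log2 change, GMA-SS minus air, of each member tested in lung (gray), blood (maroon) and aorta (green) at 4 hr (left) and 28 d (right), with bars of 1 SE and filled points for an adjusted p under 0.05. The filled points are *S100a9* (-0.77), *Fpr1* (-0.69) and *Fpr2* (-0.93) in lung at 4 hr and *Ltf* (0.64) and *Cd177* (2.21) in lung at 28 d. Those of *S100a9* and *Fpr1* passed narrowly (adjusted p = 0.0433 and 0.0494, limma).

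Among arrays of a group, the members did not form 1 block. Pearson r over the deviations from the group means is given as a description, since arrays share their beadchip and normalization. *S100a8* and *S100a9* varied together, with r = 0.97 over 16 lung, 0.93 over 16 blood and 0.96 over 15 aorta arrays. In lung *Csf3r* followed them (r = 0.84 with *S100a8*, 0.88 with *S100a9*), as did *Fpr2* (0.68 and 0.72), whereas *Ltf* (-0.26 and -0.19) and *Fpr1* (-0.05 and -0.13) did not. *Cd177* in lung had r = 0.31 with *S100a8* and -0.41 with *Ltf*, the other member that rose at 28 d. In blood *Fpr2* (0.92 with *S100a9*), *Cd177* (0.75 with *S100a8*) and *Csf3r* (0.70 with *S100a8*) followed. The granule genes *Camp* and *Ngp* gave r = 0.86 and *Ltf* and *Ngp* 0.84 in blood, but 0.07 and 0.21 without GMA-SS array 4 of 4 hr. *Fpr1* and *Fpr2*, though neighbors, had r = -0.06 in lung and 0.42 in blood.

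The genes that varied most like the mean of the standardized members were *Baz1a* (r = 0.85), *Cd244a* (0.85), *Jaml* (0.84), *Tnfaip2* (0.83) and *Ube2j2* (0.82) in lung, over 16 arrays. In blood they were *Mrgpra2b* (0.87), *Xpc* (0.86), *Arg2* (0.83), *Cd33* (0.82) and *Anxa1* (0.82), over 16 arrays. In aorta they were *Adrb3* (0.86), *Tcf23* (0.83), *Clmn* (0.83), *Prdx6* (0.81) and *Hnrnph3* (0.80), over 15 arrays and 3 members. The sets of 5 shared no gene between tissues. Since *Cd177* stood apart in lung, the genes most like it alone were also listed after its values were seen: *Adgrg5* (0.94), *Cd160* (0.93), *Laptm5* (0.93), *Itln1* (0.92) and *Irf5* (0.92). The largest deviation of *Cd177* was that of GMA-SS array 2 at 4 hr (9.49, others of its group 7.17 to 7.29). *Cd160* was also highest on that lung (7.30 against at most 6.76). The correlations without that array were not computed.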

How the data were processed

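Expression was read on 47 MouseRef-8 arrays of lung, aorta and blood cells. The authors deposited, for each array, the average signal of an entry, which is a mean bead intensity exported from BeadStudio and not normalized, its detection p-value, its standard error over beads on the same intensity scale and its number of beads. The authors also deposited normalized log2 values, made with lumi and limma and with centring not stated, which served here as an alternative. Background was subtracted with limma's normexp model (R 4.3.3, limma 3.58.1), with the mean and spread of 798 negative controls per array derived from the detection p-values. An offset of 16 was added before log2, and the arrays of a tissue, or of lung and blood together, were quantile-normalized. A gene stayed in when 3 arrays of the tissue had a detection p below 0.05, and its brightest entry stood for it. With lung and blood together, it stayed in when either tissue met this rule. Of 18138 entries, 16590 took their symbol through the Entrez number, 883 through an accession and 665 from the file. Group means were fitted with limma's lmFit and eBayes (with a trend), p-values were adjusted by Benjamini-Hochberg across all genes, and 0.05 was the threshold. Bounds set the bright group against the dimmest signal that was above background, or the dim gene's own signal if that was higher. For *Fpr1* in lung at 4 hr its own signals were used, so the bound equaled the fitted change and is not given as a bound.

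The members and lists were chosen with earlier results of these data known. All members are named, and of each other list at most the 3 genes with the lowest p in a comparison unless stated. The like genes are the 5 with the highest correlation. Replicates are separate mice. Array number and signal over background limit the precision. The fits were tested on simulated data. Alternatives covered the background step, the scaling, the detection filter, the authors' values, fits of the compared groups only, array weights, normalizing all arrays at once, every entry of a gene, a replicate block and the omission of single arrays.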

Additional observations from a re-analysis of the deposited data

Results flagged for a closer look

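Each member was checked in each group of 4 arrays where at least 1 was above background, which gave 73 sets of 4 values. In 5 sets the highest or lowest array stood apart from the rest beyond Dixon's limit, and chance alone gives about 1 in 20 sets. The sets of different members share their arrays, so they are not independent. Replicate 3 of the 4 hr air aortas read 5.43 for *Camp*, where the others read 4.61 to 4.68, and 5.88 for *Ltf*, where they read 4.63 to 4.72. Replicate 2 of the 28 d GMA-SS aortas read 5.80 for *Cd177*, where the others read 4.53 to 4.58, and it is the array with high lung epithelium genes. Replicate 2 of the 4 hr GMA-SS lungs read 9.49 for *Cd177*, where the others read 7.17 to 7.29. That lung also had the highest *Pole* (8.05 against at most 7.14), *Ms4a6c* (8.44 against at most 7.70) and *Tpx2* (7.97 against at most 7.28) of the 16 lungs, genes picked after their values were seen. Replicate 3 of the 28 d air lungs read 12.97 for *S100a8*, where the others read 12.20 to 12.31.

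The fume effect differed between blood and lung in 2 members by the test of the difference itself. For *Fpr2* at 4 hr the log2 difference, blood minus lung, was 0.84, and every GMA-SS lung lay below every air lung while the blood arrays overlapped. For *Cd177* at 28 d it was -2.24, and every GMA-SS lung lay above every air lung while the blood arrays overlapped. What lies behind these values was not tested.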

How the results depend on the processing

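The number of members called in lung at 4 hr moved most. It was 3, but 1 (*Fpr2*) without a detection filter or on the authors' normalized values, 4 with array weights (*Ltf* added), and 1 to 4 with 1 array left out. In lung at 28 d it was 2, and 1 to 2 with 1 array left out. In blood and aorta it was 0 under every alternative run, and blood against lung gave 7 (no normalization) to 9, with 9 to 9 when an air array was left out. The member called for a blood minus lung effect at 4 hr was 0 in number after scaling to the 75th percentile. With array weights *S100a9* in lung at 28 d was 0.32 and *Ltf* in blood at 28 d 0.034. After 75th percentile scaling *Ltf* in blood at 28 d was 0.10, *Camp* in aorta at 4 hr 0.037, the blood minus lung effect of *Fpr1* at 4 hr 0.40 and that of *S100a8* at 28 d 0.075. With all arrays normalized together *Ltf* in blood at 4 hr was -0.14, and on the authors' values r of *S100a8* between blood and aorta was -0.085. With no normalization between arrays, blood minus lung was -0.11 for *Camp*, -0.41 for *Ngp*, -0.97 for *Fpr1* and -0.98 for *Fpr2*. The cause was not tested. With 1 array left out, the changes that turned sign ranged from -0.34 to 0.14 (*S100a9*, lung 28 d), -0.26 to 0.056 (*Fpr1*, lung 28 d), -0.067 to 0.25 (*Fpr1*, blood 28 d), -0.32 to 0.17 and -0.18 to 0.049 (*Ltf*, blood 4 hr and 28 d), and -0.33 to 0.40 and -0.033 to 0.059 (*Ngp*, blood 4 hr and 28 d). At 28 d alone *Ngp* did not differ between blood and lung past the threshold (0.14, adjusted p = 0.683).

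Samples of air and GMA-SS come from different mice and share a replicate number. In each tissue and time at least 1 same-numbered pair correlated below 0 (lowest -0.33 to -0.01). The mean over same-numbered pairs still exceeded that over other pairs in lung (0.060 against -0.020 at 4 hr, 0.114 against -0.038 at 28 d) and in aorta at 4 hr (0.197 against -0.061). It was lower only in aorta at 28 d (-0.101 against 0.031). So few pairs cannot decide whether same-numbered samples belong together. With the replicate number as a block, 2 members were called in lung at 4 hr, *Fpr1* being lost (-0.69, adjusted p = 0.0573), and 2 in lung at 28 d. Beadchip as a random block could not be fitted, because beadchips coincide with tissue and time. Signal near background limits *Fpr1*, *Camp*, *Ngp*, *Ltf* in blood and all of *Mpo*.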
